A study of Mus musculus with 18 samples.

Results

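Cadherins and protocadherins are the calcium-dependent adhesion proteins that let cells of one kind stick to each other, and 94 of the 23228 gene symbols in the deposited expression table belong to them. They were taken by name, as every symbol made of Cdh and a number and every symbol that starts with Pcdh. They were then grouped by family into 5 classical type I cadherins, 13 type II cadherins (also called atypical), 5 divergent cadherins, 59 clustered protocadherins and 12 non-clustered protocadherins. RNA had been sequenced from 2 samples of ICR mouse embryos, both labelled WT. The first was GFP-positive cells sorted from trypsin-dissociated neural tubes at E12.5. In those embryos a 2.3 kb autoregulatory enhancer of Ptf1a, placed before a beta-globin basal promoter, drives GFP, so the sorted cells are those in which that fragment is or was active and are not the whole neural tube. The second was whole, unsorted pancreas at E15.5. Ptf1a is a basic helix-loop-helix factor needed in both tissues, and the series asks how one factor serves 2 gene programs. Per the labels each sample named 2 libraries, but the table holds 1 pooled value per gene and sample. No difference below therefore has a replicate check, an error or a p-value.

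Classical cadherins join neighbouring cells through their outermost domain, mostly like to like, and hold the actin skeleton through catenins on their tail. E-cadherin (Cdh1) is the cadherin of epithelia, such as the ducts and acini of the pancreas, and N-cadherin (Cdh2) that of the neural tube, whose cells exchange the first for the second as the neural plate folds. Type II cadherins are used in patterned sets by neurons, vessels and mesenchyme. The clustered protocadherins lie in 3 tandem arrays, alpha, beta and gamma, from which single neurons express different combinations that mark self from non-self. Non-clustered (delta) protocadherins are mostly known from axon growth and cell sorting in the nervous system.

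Levels are FPKM, fragments scaled to transcript length and to sequencing depth. Differences are given as neural tube cells minus pancreas on the log2(FPKM + 1) scale, where low genes look closer than their ratio. Calls rest on size alone: a gene counted as higher in a sample if it was apart by 2 or more on that scale (4 times) and its larger value reached 5 FPKM. In the 2 samples 1 fragment on a 1 kb transcript was worth about 0.0415 FPKM (neural tube cells) and 0.0245 FPKM (pancreas), as judged from the lowest steps of the values. Neural and epithelial marker genes matched the labels. Of 15 neural markers found, 14 were called higher in neural tube cells, with sums of 1883 FPKM in neural tube cells and 49.9 in pancreas. In pancreas 8 of 8 epithelial markers were called higher, with sums of 8.16 FPKM in neural tube cells and 832 in pancreas. All 8 acinar and 5 of 8 endocrine markers were also called higher in pancreas. The sorted sample held other RNA too: of 6 erythroid markers, 2 were called higher in neural tube cells and 2 in pancreas. The 2 in neural tube cells were Hba-x, at 481 FPKM there and 33.6 in pancreas, and Hbb-bh1, at 138 and 2.03.

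By that rule 6 of the 94 members were higher in neural tube cells and 2 were higher in pancreas. Over all 23228 genes the rule called 4.76% higher in neural tube cells and 5.50% higher in pancreas. The 6 were Cdh2, Cdh4, Cdh8, Cdh24, Pcdh8 and Pcdhga11, and the 2 were Cdh1 and Cdh5. Most members were too low for a call: 64 reached 1 FPKM in either sample, 19 reached 5 FPKM, and 30 stayed under 1 FPKM in both. Of the 10744 genes of the table at 5 FPKM, 10.3% were called higher in neural tube cells and 11.9% higher in pancreas, beside 6 and 2 of the 19 members. Of the 64 members at 1 FPKM, 55 had the larger value in neural tube cells and 9 in pancreas, beside 48.0% and 52.0% of all genes at that level. In 53 of the 64 the value in neural tube cells was at least 2 times that in pancreas, beside 24.9% of all genes. A minimum set by the larger value favours members that differ, so these counts describe the members that passed it. The 94 values summed to 336 FPKM in neural tube cells and 258 in pancreas.

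Promoter sequence was given for 22 of the 94 members in RefSeq's promoter table of build GRCm38.p6, which holds 250 bases before to 50 after each start. The 4 shown are the 3 members called higher in neural tube cells that had an entry, and Pcdh18, the 1 member with an entry that reached 5 FPKM and was above in pancreas. Each was found once, letter for letter, on its chromosome of NCBIM37 (the same build as mm9), and those positions are given. Capitals mark the E-box CANNTG, which basic helix-loop-helix factors such as Ptf1a bind, the letters TGGGAA, the core bound by Rbpj, and TATAAA, the TATA box, each searched on both strands with overlaps allowed.
Pcdh8, chr14:80171070-80171369, minus strand: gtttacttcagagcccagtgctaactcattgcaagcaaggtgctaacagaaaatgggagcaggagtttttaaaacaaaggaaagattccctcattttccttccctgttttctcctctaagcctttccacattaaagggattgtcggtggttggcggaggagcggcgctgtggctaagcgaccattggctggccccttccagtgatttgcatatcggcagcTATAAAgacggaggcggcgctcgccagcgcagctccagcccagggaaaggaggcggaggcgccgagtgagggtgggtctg
Cdh8, chr8:101940322-101940621, minus strand: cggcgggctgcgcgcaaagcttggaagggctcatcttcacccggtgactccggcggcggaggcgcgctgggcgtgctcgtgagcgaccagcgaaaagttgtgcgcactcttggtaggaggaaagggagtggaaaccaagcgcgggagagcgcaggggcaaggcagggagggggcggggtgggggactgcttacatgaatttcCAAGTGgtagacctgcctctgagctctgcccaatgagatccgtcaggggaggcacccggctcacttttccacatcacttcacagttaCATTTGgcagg
Cdh24, chr14:55260152-55260451, minus strand: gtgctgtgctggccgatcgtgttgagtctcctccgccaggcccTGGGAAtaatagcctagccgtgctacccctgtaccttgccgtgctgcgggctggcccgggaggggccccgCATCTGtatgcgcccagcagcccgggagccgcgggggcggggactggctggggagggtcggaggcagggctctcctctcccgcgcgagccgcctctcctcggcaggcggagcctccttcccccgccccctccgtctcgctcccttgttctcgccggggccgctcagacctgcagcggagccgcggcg
Pcdh18, chr3:49561189-49561488, minus strand: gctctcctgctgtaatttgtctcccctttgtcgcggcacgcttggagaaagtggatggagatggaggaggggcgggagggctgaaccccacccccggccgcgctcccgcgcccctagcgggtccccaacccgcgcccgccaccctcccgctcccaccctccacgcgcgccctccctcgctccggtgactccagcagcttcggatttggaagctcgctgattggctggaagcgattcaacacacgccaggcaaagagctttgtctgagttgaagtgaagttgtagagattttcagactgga
Cdh24 held 1 E-box and 1 TGGGAA, Cdh8 held 2 E-boxes, Pcdh8 held 1 TATAAA and none of the other 2 motifs, and Pcdh18 held none of the 3. Among the 25 entries of the 22 members, 15 held CANNTG, 8 held TGGGAA and 2 held TATAAA. These are not counts of genes: Cdh7 and Pcdh9 had more than 1 entry, and every Cdh7 entry held both CANNTG and TGGGAA. Of all 32851 promoters, 72.3% held CANNTG, 25.6% held TGGGAA and 13.6% held TATAAA. The matches describe letters in these windows only. Pcdh8 was 54.3% GC, Cdh8 62.3%, Cdh24 73.3% and Pcdh18 63.0%, beside a median of 52.7% over all promoters.

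The classical type I cadherins differed in opposite directions, and Cdh1 had the largest difference of the 94 members. Cdh1 was at 0.652 FPKM in neural tube cells and 115 FPKM in pancreas, a difference of -6.13 or 176 times lower in neural tube cells. Cdh2 was at 67.1 FPKM in neural tube cells and 5.76 FPKM in pancreas, a difference of 3.33 or 11.6 times higher. Each sample thus had 1 dominant type I cadherin. Of the summed type I FPKM, Cdh2 took 78.9% in neural tube cells and 4.32% in pancreas, and Cdh1 took 0.767% in neural tube cells and 86.2% in pancreas. Such shares within a sample do not depend on how the samples are scaled to each other. At a transcript length of 4430 bases the Cdh1 value in neural tube cells corresponds to about 70 fragments, so it was low but above the 3-fragment level of 0.0281 FPKM. Cdh1 lies on chromosome 8 at 109127251 to 109194146 and Cdh2 on chromosome 18 at 16747386 to 16967755 (GENCODE M1 on NCBIM37, as are all gene positions here).

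Cdh4, R-cadherin of the retina and brain, was at 12.7 FPKM in neural tube cells and 0.288 in pancreas, a difference of 3.42 or 44.2 times (chromosome 2, 179177136 to 179634078). It was the second type I cadherin of the sorted cells, with 15.0% of their type I sum against 0.216% in pancreas. Cdh3, P-cadherin, was at 3.29 FPKM in neural tube cells and 12.2 in pancreas, a difference of -1.62 that missed the rule. Cdh3 ends 46442 bases before the start of Cdh1 on the same strand, and the 2 neighbours were both above in pancreas. Cdh15, M-cadherin of muscle, was low in both, at 1.27 FPKM in neural tube cells and 0.183 in pancreas. The median difference of the 5 was 0.94, the value of Cdh15, and the other members lay far from it on both sides.

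**Figure D1:**
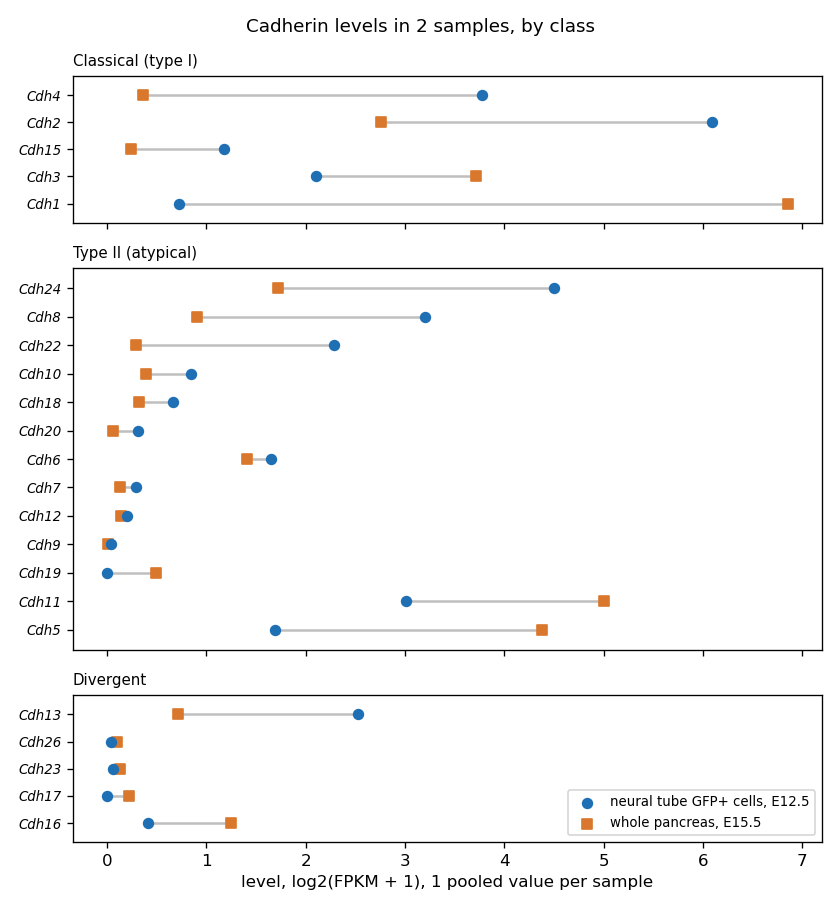
Level of each of the 23 cadherins as log2(FPKM + 1) (x axis), in panels for type I, type II and divergent members sorted by difference, with circles for neural tube GFP+ cells and squares for pancreas, 1 pooled value each. The longest lines are those of Cdh1, at 0.652 FPKM in neural tube cells against 115 in pancreas, and of Cdh4 and Cdh2 in the other direction.

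Type II cadherins that reached 1 FPKM went both ways, with 4 above in neural tube cells and 2 in pancreas. Cdh24, known from adhesion assays with catenins, was the highest of them in neural tube cells at 21.7 FPKM, against 2.30 in pancreas, a difference of 2.78 (chromosome 14, 55250829 to 55260201). Cdh8, which takes part in matching neurons to their partners, was at 8.20 FPKM in neural tube cells and 0.875 in pancreas, a difference of 2.30 (chromosome 8, 101548371 to 101940371). Cdh22, expressed in brain, was at 3.87 FPKM in neural tube cells and 0.221 in pancreas, 17.5 times higher but under the 5 FPKM minimum. Cdh6 was close in the 2 samples, at 2.13 FPKM in neural tube cells and 1.66 in pancreas.

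Cdh5, VE-cadherin of endothelial junctions, was at 2.24 FPKM in neural tube cells and 19.8 in pancreas, a difference of -2.68 or 8.82 times lower in neural tube cells (chromosome 8, 106625525 to 106668402). Endothelial markers differed the same way. Of the 10 listed, 5 were called higher in pancreas and 0 in neural tube cells, none was listed at 0 (2 to 5 were called across the rescalings), and they summed to 28.8 FPKM in neural tube cells and 147.5 in pancreas. Cdh11, the cadherin of mesenchyme and osteoblasts, was at 7.08 FPKM in neural tube cells and 31.0 in pancreas, a difference of -1.99 that fell just short of the rule (chromosome 8, 105156895 to 105309011). The 11 mesenchyme markers summed to 63.1 FPKM in neural tube cells and 1240 in pancreas, with 5 called higher in pancreas and 1, Twist1, higher in neural tube cells. None of the 11 was listed at 0. At 5 FPKM or more were 9 endothelial and 8 mesenchyme markers. At that level 11.9% of all genes were called higher in pancreas and 10.3% in neural tube cells. The part of either cell type in the Cdh5 and Cdh11 values was not tested. In tissue RNA, fewer cells of a type and less RNA per cell cannot be told apart.

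The other 7 type II members were under 1 FPKM in both samples. The 2 highest in neural tube cells were Cdh10, at 0.794 FPKM in neural tube cells and 0.315 in pancreas, and Cdh18, at 0.585 in neural tube cells and 0.253 in pancreas. Cdh19, a marker of Schwann cell precursors, was listed at 0 in neural tube cells and stood at 0.410 FPKM in pancreas. Of the type II sum, Cdh24 took 45.9% in neural tube cells and 4.03% in pancreas, while Cdh11 took 15.0% in neural tube cells and 54.4% in pancreas. Over the 6 members that reached 1 FPKM the median difference was 1.12, but it was -1.99 over the 3 that reached 10 FPKM, so the class as a whole has no direction that holds at every minimum.

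Among the divergent cadherins, T-cadherin (Cdh13), which is held to the membrane by a lipid anchor and has no catenin-binding tail, was at 4.76 FPKM in neural tube cells and 0.642 in pancreas, a difference of 1.81. Cdh16, kidney-specific cadherin, was at 0.333 FPKM in neural tube cells and 1.38 in pancreas. Cdh17 of intestine and liver was listed at 0 in neural tube cells and at 0.168 FPKM in pancreas. Cdh23, of the hair cell tip link, and Cdh26 were under 0.1 FPKM in both. None of the 5 was called.

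The clustered protocadherins were low one by one and nearly all higher in neural tube cells. Of 59 members 57 had the higher value in neural tube cells, against 39.9% of all genes in the table. That share is 9279 of 23228 genes, beside 11484 above in pancreas, and the rest, equal in both samples, stay in its denominator. Among genes at 1 FPKM it was 48.0%. The count of clustered members was 57 under each of the 5 rescalings of the samples as well, while the share over all genes moved between 37.8% and 51.3%. The 2 exceptions, Pcdha4 and Pcdhb1, were both listed at 0 in neural tube cells. The 59 values summed to 155 FPKM in neural tube cells and 36.9 FPKM in pancreas, 4.20 times more. By the rule of size 1 member, Pcdhga11, was called higher in neural tube cells and 0 in pancreas. Only 6 of the 59 reached 5 FPKM in either sample, a level at which 10.3% and 11.9% of all genes were called. The members share chromosome 18. The 22 beta genes, most of which are single exons, run from 37424652 to 37681073 there on the plus strand. In the alpha and gamma arrays each gene's first exon is spliced to exons common to the array. Fragments from those common exons cannot be assigned to 1 member, so single alpha and gamma values are uncertain and members are not independent of each other.

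The 3 arrays did not differ by the same factor. The 15 alpha values summed to 16.1 FPKM in neural tube cells and 0.484 in pancreas, 33.4 times more. The 22 beta values summed to 28.1 FPKM in neural tube cells and 8.49 in pancreas, 3.32 times more, and the 22 gamma values to 111 FPKM in neural tube cells and 27.9 in pancreas, 3.96 times more. As a share of all clustered protocadherin FPKM, alpha took 10.4% in neural tube cells and 1.31% in pancreas, beta 18.2% in neural tube cells and 23.0% in pancreas, and gamma 71.4% in neural tube cells and 75.7% in pancreas. The alpha values in pancreas ran from 0 to 0.0988 FPKM, with 2 listed at 0, and the beta values there from 0.0248 to 1.14 FPKM. In pancreas Pcdha3 was at about 2.8 fragments, under its 3-fragment level of 0.0301 FPKM, and Pcdha11 at about 10 fragments. The alpha factor of 33.4 thus rests on pancreas values near the floor and is uncertain. With 1 value per sample the difference between arrays could not be tested.

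**Figure D2:**
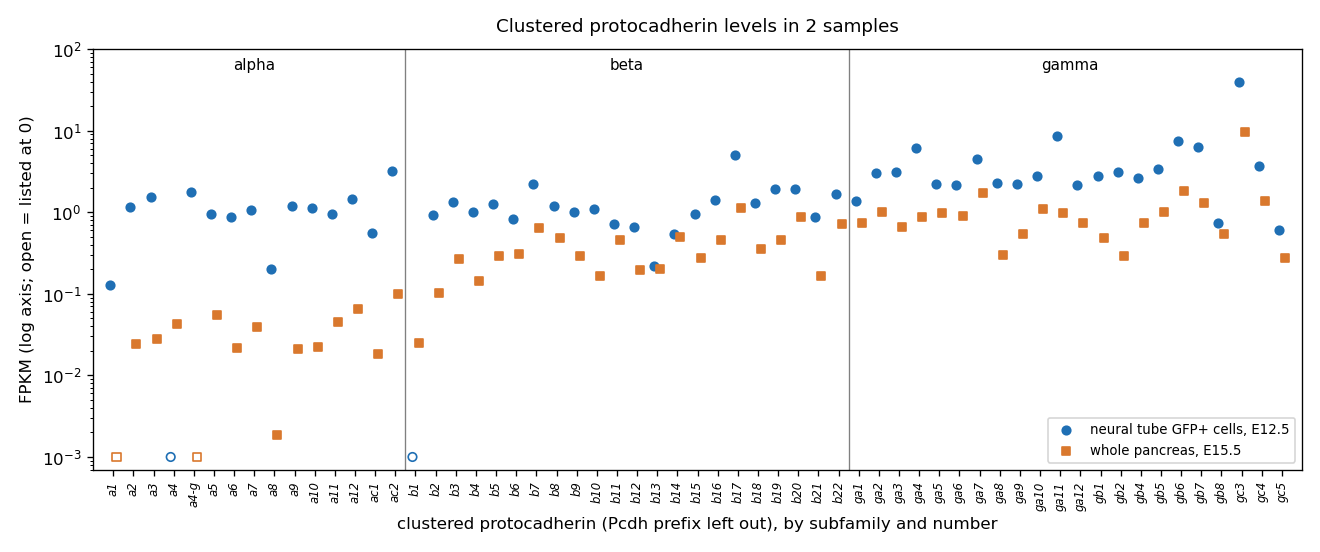
FPKM of each of the 59 clustered protocadherins on a log axis, by array, subfamily and number, with circles for neural tube GFP+ cells, squares for pancreas and open symbols for values listed at 0, 1 pooled value each. The gap between circles and squares is widest in alpha, where pancreas does not pass 0.0988 FPKM, and Pcdhgc3 stands above the rest in both, at 39.6 FPKM in neural tube cells and 9.61 in pancreas.

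In the alpha array Pcdhac2, a C-type member that neurons can express constitutively, was highest at 3.18 FPKM in neural tube cells and 0.0988 in pancreas. The alternates at 1 FPKM or more in neural tube cells were close to one another. Pcdha3 was at 1.54 FPKM in neural tube cells and 0.0278 in pancreas. Pcdha12 was at 1.45 in neural tube cells and 0.0656 in pancreas. Pcdha9 was at 1.20 in neural tube cells and 0.0212 in pancreas. These alternates were all under 0.1 FPKM in pancreas. Pcdha2 was at 1.15 in neural tube cells and 0.0244 in pancreas. Pcdha10 was at 1.12 in neural tube cells and 0.0226 in pancreas. Pcdha7 was at 1.07 in neural tube cells and 0.0386 in pancreas. Pcdha4-g was at 1.78 FPKM in neural tube cells and listed at 0 in pancreas, while Pcdha4 was listed at 0 in neural tube cells and at 0.0426 FPKM in pancreas. The 2 names share one number, and their separate values are uncertain. Together they came to 1.78 FPKM in neural tube cells and 0.0426 in pancreas. Pcdha5, Pcdha11, Pcdha6 and Pcdhac1 were between 0.556 and 0.952 FPKM in neural tube cells, with 0.0184 to 0.0549 FPKM in pancreas. Apart from Pcdha4, the lowest in neural tube cells were Pcdha8 and Pcdha1, at 0.199 FPKM and 0.129 FPKM.

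In the beta array 21 of 22 members were higher in neural tube cells, with most values between 0.5 and 2 FPKM. Pcdhb17 led at 5.02 FPKM in neural tube cells and 1.14 in pancreas, a difference of 1.49. Next came Pcdhb7 at 2.23 FPKM in neural tube cells and 0.648 in pancreas. Pcdhb19 was at 1.94 in neural tube cells and 0.453 in pancreas. Those beta members were each about 3 times or more higher in neural tube cells. Pcdhb20 was at 1.92 in neural tube cells and 0.868 in pancreas. Pcdhb22 was at 1.68 in neural tube cells and 0.718 in pancreas. Pcdhb17 was the highest beta member in pancreas too. Pcdhb16 was at 1.43 FPKM in neural tube cells and 0.454 in pancreas. Pcdhb3 was at 1.34 in neural tube cells and 0.269 in pancreas. Pcdhb18 was at 1.30 in neural tube cells and 0.35 in pancreas. None of these reached 0.5 FPKM in pancreas. Pcdhb5 was at 1.28 in neural tube cells and 0.288 in pancreas. Pcdhb8 was at 1.20 in neural tube cells and 0.477 in pancreas. Pcdhb10, Pcdhb4 and Pcdhb9 were close to 1 FPKM in neural tube cells, at 1.09, 1.01 and 1.00, and at 0.164, 0.145 and 0.290 in pancreas. Of the members between 0.5 and 1 FPKM, Pcdhb2, Pcdhb6, Pcdhb11, Pcdhb12, Pcdhb15 and Pcdhb21 ran from 0.654 to 0.950 in neural tube cells. Pcdhb14 and Pcdhb13 hardly differed, at 0.535 FPKM in neural tube cells and 0.494 in pancreas for Pcdhb14 and at 0.222 in neural tube cells and 0.200 in pancreas for Pcdhb13.

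The gamma array held the highest member of all clustered protocadherins in both samples. Pcdhgc3, a C-type member that is expressed widely outside neurons too, was at 39.6 FPKM in neural tube cells and 9.61 in pancreas, a difference of 1.94 just short of the rule. Its share of the clustered sum was 25.6% in neural tube cells and 26.0% in pancreas. Pcdhgc4 was at 3.64 FPKM in neural tube cells and 1.39 in pancreas. Pcdhgc5 was at 0.601 in neural tube cells and 0.273 in pancreas.

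Pcdhga11, the only clustered member called, was at 8.54 FPKM in neural tube cells and 0.972 in pancreas, a difference of 2.27. With scaling to equal totals, Pcdhga4, Pcdhgb6, Pcdhgb7 and Pcdhgc3 passed the rule as well. Of the A members, Pcdhga4 was at 6.11 FPKM in neural tube cells and 0.873 in pancreas. Pcdhga7 was at 4.47 in neural tube cells and 1.71 in pancreas. Pcdhga3 was at 3.08 in neural tube cells and 0.657 in pancreas. The A members thus ranked differently in the 2 samples, with Pcdhga7 above Pcdhga4 in pancreas. Pcdhga2 was at 3.03 in neural tube cells and 1.01 in pancreas. Pcdhga10 was at 2.78 in neural tube cells and 1.09 in pancreas. The next 5, Pcdhga8, Pcdhga5, Pcdhga9, Pcdhga6 and Pcdhga12, lay between 2.14 and 2.28 FPKM in neural tube cells and were at 0.301, 0.976, 0.535, 0.903 and 0.742 FPKM in pancreas. Pcdhga1, the lowest of them in neural tube cells, was at 1.35 FPKM in neural tube cells and 0.734 in pancreas. Of the B members, Pcdhgb6 was at 7.52 FPKM in neural tube cells and 1.83 in pancreas. Pcdhgb7 was at 6.26 in neural tube cells and 1.29 in pancreas. Pcdhgb5 was at 3.36 in neural tube cells and 0.995 in pancreas. These were the 3 highest B members in both samples. Pcdhgb2 was at 3.12 in neural tube cells and 0.292 in pancreas. Pcdhgb1 was at 2.78 in neural tube cells and 0.478 in pancreas. Pcdhgb4 was at 2.66 in neural tube cells and 0.728 in pancreas. Pcdhgb8, the lowest of them in neural tube cells, was at 0.744 FPKM in neural tube cells and 0.544 in pancreas. Without Pcdhgc3 the gamma sum was still 3.88 times greater in neural tube cells, at 71.1 FPKM against 18.3 in pancreas.

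Non-clustered protocadherins went both ways, 7 of 12 above in neural tube cells. Pcdh8, also called arcadlin and known from synapses and from early mesoderm, was at 11.3 FPKM in neural tube cells and 0.135 in pancreas, a difference of 3.44 and a ratio of 83.7 (chromosome 14, 80166587 to 80171119). Its pancreas value corresponds to about 22 fragments. It was the only one of the 12 called, and its promoter is the one with TATAAA above. Pcdh10, which guides axons in the forebrain, was at 4.56 FPKM in neural tube cells and 0.360 in pancreas, 12.7 times higher but under the 5 FPKM minimum.

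The remaining delta-2 members were nearer each other. Pcdh19, an X-linked partner of N-cadherin, was at 3.70 FPKM in neural tube cells and 1.22 in pancreas. Pcdh17, of presynaptic zones, was at 3.09 in neural tube cells and 1.07 in pancreas. Pcdh18 was at 4.68 FPKM in neural tube cells and 11.5 in pancreas, a difference of -1.14, and was the highest non-clustered member of the pancreas with 40.5% of their sum there, against 10.7% in neural tube cells. In delta-1, Pcdh9 was at 5.82 FPKM in neural tube cells and 2.32 in pancreas. Pcdh7, or NF-protocadherin, was at 5.41 in neural tube cells and 1.46 in pancreas. Pcdh1, found in epithelia such as the airway, was at 3.67 FPKM in neural tube cells and 6.28 in pancreas. Pcdh11x was at 0.563 in neural tube cells and 0.168 in pancreas.

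The 3 other members were all above in pancreas. Pcdh12, or VE-cadherin-2 of endothelium, was at 0.200 FPKM in neural tube cells and 2.51 in pancreas, 12.6 times lower in neural tube cells, beside the endothelial marker sums and Cdh5 given above. Pcdh15, of the hair cell tip link, was at 0.695 FPKM in neural tube cells and 1.01 in pancreas, and its direction turned when the samples were scaled to equal totals. Pcdh20 was under 0.5 FPKM in both.

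**Figure D3:**
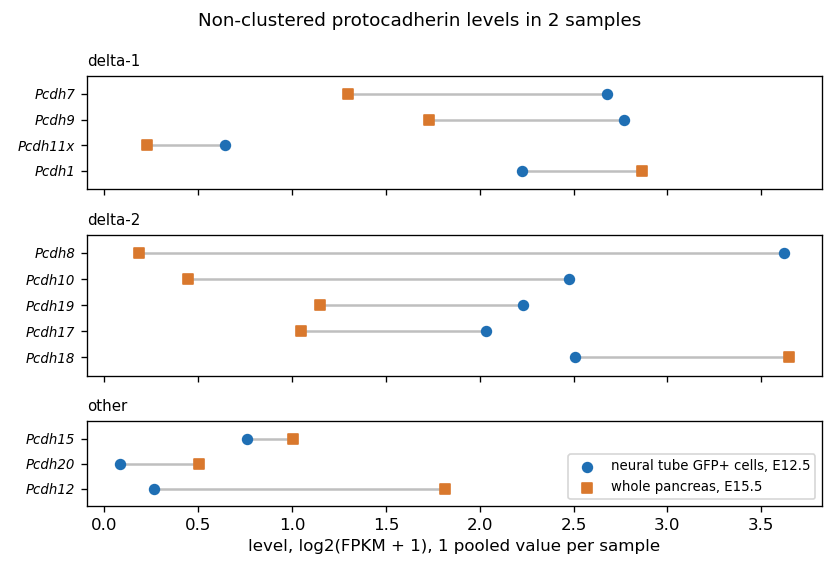
Level of each of the 12 non-clustered protocadherins as log2(FPKM + 1) (x axis), in panels for delta-1, delta-2 and other members, with circles for neural tube GFP+ cells and squares for pancreas, 1 pooled value each. Pcdh8 has the longest line, with 11.3 FPKM in neural tube cells and 0.135 in pancreas, and Pcdh18 and Pcdh12 run the other way.

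Among the intracellular partners of classical cadherins, 3 were called, 2 of them the neural forms of alpha- and delta-catenin. Of 13 catenins and p120 relatives found, 3 were called higher in neural tube cells and 0 in pancreas. All but 1 of the 13 reached 5 FPKM. Among all genes at that level 10.3% were called higher in neural tube cells and 11.9% in pancreas. Ctnna2, alpha-N-catenin, was at 31.1 FPKM in neural tube cells and 1.04 in pancreas. Ctnnd2, delta-catenin of neurons, was at 11.9 in neural tube cells and 0.453 in pancreas. Arvcf, a p120 relative, was at 37.5 in neural tube cells and 5.12 in pancreas. The widely used partners were not called. Ctnnb1, beta-catenin, was at 246 FPKM in neural tube cells and 327 in pancreas. Ctnnd1, p120-catenin, was at 33.9 in neural tube cells and 51.7 in pancreas. Among partners that reached 5 FPKM, Jup was the furthest below in neural tube cells. Jup, plakoglobin, was at 7.41 FPKM in neural tube cells and 16.8 in pancreas. Ctnnal1 was at 6.11 in neural tube cells and 10.9 in pancreas. Pkp4, the least different of those at 5 FPKM, was at 12.7 in neural tube cells and 16.2 in pancreas. The list's median of -0.37 became positive with scaling to equal totals or to housekeeping genes.

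The 6 desmosomal genes that reached 1 FPKM all had the direction of Cdh1. Of 14 desmosomal cadherins and plaque genes 4 were called higher in pancreas and 0 in neural tube cells. Of the 14, 5 reached 5 FPKM, where 11.9% of all genes were called higher in pancreas and 10.3% in neural tube cells. Another 8 stayed under 1 FPKM in both samples, and over all 14, 3 were above in neural tube cells. The 14 summed to 2.48 FPKM in neural tube cells and 73.1 in pancreas. Dsg2, desmoglein of simple epithelia, was at 0.0807 FPKM in neural tube cells and 18.8 in pancreas. Perp was at 0.267 in neural tube cells and 21.6 in pancreas. Dsp, desmoplakin, was at 0.263 in neural tube cells and 11.3 in pancreas. The smallest difference at 5 FPKM was that of Pkp2, plakophilin, at 1.46 FPKM in neural tube cells and 8.50 in pancreas.

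Of 16 other cadherin superfamily genes found, 6 were called higher in neural tube cells and 1 in pancreas. There were 11 at 5 FPKM or more, a level at which the rule called 10.3% and 11.9% of all genes. Celsr2, a planar polarity receptor, was at 72.0 FPKM in neural tube cells and 2.87 in pancreas. Celsr3, needed for axon tracts, was at 28.0 in neural tube cells and 0.718 in pancreas. Fat3 was at 9.35 in neural tube cells and 0.138 in pancreas. The gene called toward pancreas was Ret, the GDNF receptor with cadherin-like domains, at 2.27 FPKM in neural tube cells and 13.04 in pancreas. That call was lost under at least 1 rescaling. Among genes that reached 5 FPKM, Fat1 differed least, at 12.4 FPKM in neural tube cells and 7.29 in pancreas.

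Genes that regulate or act downstream of protocadherins went both ways, 11 above in neural tube cells and 11 in pancreas. Of the 22, 2 were called higher in neural tube cells and 0 in pancreas, and 19 reached 5 FPKM. Over all genes at 5 FPKM the rule called 10.3% and 11.9%, so the 2 calls are near the share over all genes. The list's median of -0.003 moved between -0.11 and 0.60 under rescaling. Wasf1, of the actin-nucleating WAVE complex that delta-2 protocadherins bind, was at 36.6 FPKM in neural tube cells and 4.10 in pancreas. Dab1, an adaptor of reelin signalling, was at 12.4 in neural tube cells and 2.01 in pancreas. Wiz was at 44.0 FPKM in neural tube cells and 11.2 in pancreas. No subunit of cohesin, the ring used in protocadherin promoter choice, was called. Stag2, one of them, was at 9.85 FPKM in neural tube cells and 27.6 in pancreas. Rad21, another, was at 48.0 FPKM in neural tube cells and 84.3 in pancreas. Cyfip1, of the WAVE complex, was at 9.08 in neural tube cells and 22.6 in pancreas. Ctcf, the factor that loops protocadherin promoters to their enhancers, was at 36.1 FPKM in neural tube cells and 24.0 in pancreas. Nckap1 differed least at 39.8 in neural tube cells and 36.0 in pancreas.

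Of 10 genes of cadherin cleavage and trafficking 1 was called, higher in pancreas. All 10 reached 5 FPKM, where 11.9% of all genes were called higher in pancreas, so 1 call is near that share. It was Psen2, a gamma-secretase subunit, at 2.38 FPKM in neural tube cells and 13.6 in pancreas, a call lost under at least 1 rescaling. Adam10, the sheddase of E- and N-cadherin, was at 26.1 FPKM in neural tube cells and 54.0 in pancreas. Psenen was at 42.6 in neural tube cells and 121.5 in pancreas. Aph1a differed least at 47.0 in neural tube cells and 48.1 in pancreas. Hgs, Cbll1 and Pcsk6 were above in neural tube cells, at 41.1, 8.92 and 5.19 FPKM against 12.5, 5.25 and 3.47 in pancreas. The list's median of -0.20 turned positive under 3 of the 5 rescalings.

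**Figure D4:**
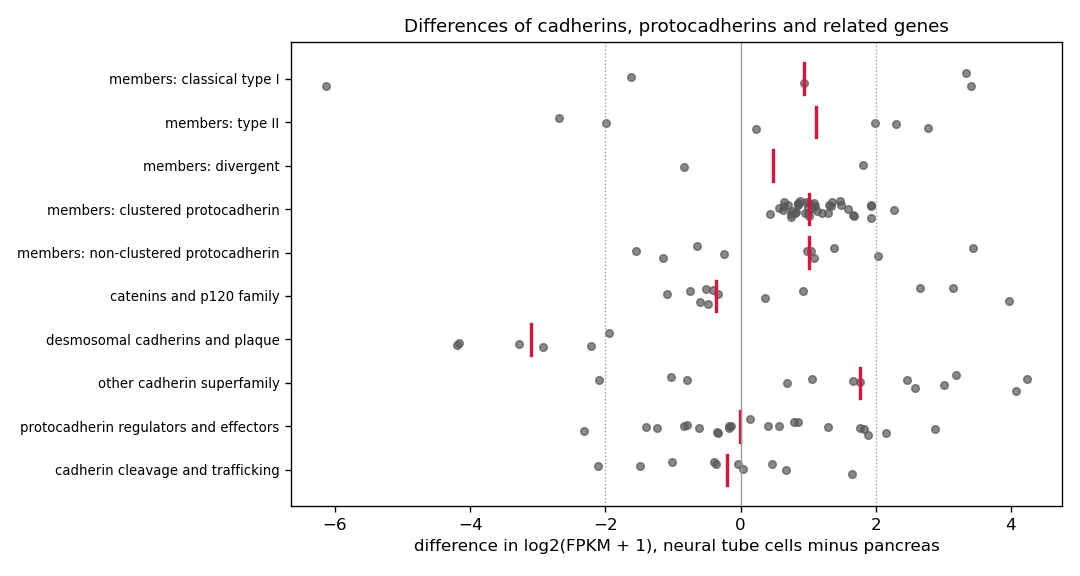
Difference in log2(FPKM + 1), neural tube cells minus pancreas (x axis), of each gene that reached 1 FPKM, for the 5 classes of cadherins and protocadherins and 5 related lists, with each list's median as an upright bar and the rule of 2 as dotted lines. Clustered protocadherins sit together around their median of 1.02, type I cadherins spread from -6.13 to 3.42, and desmosomal genes lie below 0.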

How the data were processed

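RNA from sorted E12.5 neural tube cells and whole E15.5 pancreas was compared. Of the series' 18 samples, 16 (11 chromatin immunoprecipitation, 2 input and 3 open-chromatin) are not analysed here. The authors deposited 1 FPKM value per gene and sample, per the file headers. The submitters' processing notes list build mm9 and the programs Cuffdiff 2.0.2, TopHat2 2.0.4, TopHat and CASAVA, without roles. For annotation and filters the sources used here give nothing. Sorted cells went through a column kit and pancreas through Trizol, per the labels' protocols, and a second library kit was named for pancreas, so tissue, stage, sorting and preparation cannot be told apart.

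Differences were log2(FPKM + 1), with calls at 4 times and 5 FPKM and medians over members that reached 1 FPKM. Depth is known only approximately: the commonest low step of FPKM times length among genes with 1 annotated transcript gave the worth of 1 fragment (143 genes in neural tube cells, 282 in pancreas), with a 3-fragment level at 1 kb of 0.125 and 0.0735 FPKM. No interval is given, and a low value covers counting error only in this rough sense. Positions come from GENCODE M1 on NCBIM37, where 59 of 94 members had a single gene of their name. Every member that reached 1 FPKM was named, with those from 0.5 FPKM named, and of each related list the 3 largest differences each way and the smallest among genes at 5 FPKM or more. Ctcf, Ctnnb1 and the TATAAA motif were chosen after their values or sequences were seen. The members and lists were chosen with earlier results of these data known. Alternatives were pseudocounts of 0.1 and 5 FPKM, no minimum and a minimum of 10 FPKM, 5 rescalings and thresholds of 2 and 8 times. The call rule was also run on simulated data with an assumed noise and large changes planted in well expressed genes. Such a run checks the code only, and it measures neither the error of these samples nor calls at low values. Python 3.11.15, pandas 2.3.3, numpy 2.4.6 and matplotlib 3.10.9 were used.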

Additional observations from a re-analysis of the deposited data

How the results depend on the processing

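Of the 8 called members, Cdh1 and Cdh2 were called under every alternative run. Cdh4 and Pcdh8 lost the call only with a pseudocount of 5 FPKM, Cdh24 and Cdh5 with that and at 8 times, and Cdh8 and Pcdhga11 with those and a minimum of 10 FPKM. No called member changed sign, and of the other members at 1 FPKM only Pcdh15 did, with equal totals. The count of members higher in neural tube cells, 6 as reported, was 10 with a pseudocount of 0.1 and 1 with a pseudocount of 5. It was 7 without a minimum, 4 with a minimum of 10 FPKM, 13 at 2 times and 3 at 8 times. Median ratio and upper quartile scaling left it at 6. It was 12 with equal totals, 10 with housekeeping scaling and 10 with equal totals without the 50 highest genes of each sample. Cdh13, Pcdh10, Pcdhga4 and Pcdhgc3 gained the call with each of these 3 scalings, and Pcdhgb6 and Pcdhgb7 with equal totals. The count higher in pancreas, 2 as reported, was 1 with a pseudocount of 5, 5 at 2 times and 1 at 8 times, and 3, with Cdh11 added, with a pseudocount of 0.1, median ratio scaling and upper quartile scaling. The median difference of type I cadherins was 2.27 and 0.27 with pseudocounts of 0.1 and 5, that of type II cadherins 1.72 and 0.43, and that of clustered protocadherins 1.97 and 0.35. Without a minimum the type II median was 0.24 and the divergent median -0.0649, reversed in sign. With a minimum of 10 FPKM the type II median was -1.99, also reversed, the clustered value was 1.94 from 1 member, and no divergent member was left. In these cases fewer or more members entered the median by construction. Over all genes that reached 1 FPKM in each sample the median, 0.02 as deposited, was 0.53 with equal totals, 0.37 with housekeeping scaling and 0.32 without the 50 highest genes, and the share of all calls toward neural tube cells, 46.4%, was 66.8%, 61.0% and 58.8%. The clustered median of 1.02 was 1.25, 1.19 and 1.17 under the same 3. No paired analysis was possible because the RNA samples hold 1 pooled value each. The low values of single clustered protocadherins limit what depth can show for each, most of all for alpha members in pancreas.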

Other observations

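Transcriptional repressors that can bind E-boxes of the E-cadherin gene were listed beside the members. Of 11 such genes 4 were called higher in neural tube cells and 1 in pancreas. In this list 9 reached 5 FPKM, where 10.3% and 11.9% of all genes were called. The median difference of 1.44 stayed between 1.34 and 2.01 under rescaling. Scrt2 and Scrt1, the Scratch factors of neurons, were at 140.1 and 77.4 FPKM in neural tube cells and at 0.0343 and 0.0101 FPKM in pancreas. Twist1 was at 15.8 FPKM in neural tube cells and 1.39 in pancreas. Snai2, or Slug, the 1 gene called toward pancreas, was at 0.840 FPKM in neural tube cells and 8.20 in pancreas, and that call was lost under at least 1 rescaling. Among genes that reached 5 FPKM, Snai1 differed least, at 5.24 FPKM in neural tube cells and 2.55 in pancreas. Snai3 was listed at 0 in neural tube cells. No relation between these values and Cdh1 can be tested with 1 value per sample.

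Markers of further cell types also differed between the samples. Mesothelial markers summed to 1.52 FPKM in neural tube cells and 61.3 in pancreas, immune markers to 5.86 FPKM in neural tube cells and 210.2 in pancreas, and neural crest and Schwann markers to 23.4 FPKM in neural tube cells and 16.8 in pancreas. Erythroid markers summed to 622 FPKM in neural tube cells and 133 in pancreas.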
